A study of Mus musculus with 8 samples.

Results

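The genes described here encode the T cell receptor (TCR) signalling apparatus: the CD3 chains, the co-receptors beside them, the kinases and adaptors that carry the signal inward, and the proteins that restrain it. They were chosen by gene symbol from a list of 45 names. The rule uses no measured value, but the list was drawn up with earlier results of these data known. All 45 had a row among the 23361 gene symbols of the expression table. All 45 also passed the filter on low values, which left 10467 genes to be tested.

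RNA sequencing covered 4 libraries of Nrp-1+ iTreg and 4 of Nrp-1- iTreg. iTreg are regulatory T cells made in culture. Here, naive CD4+ T cells of wild-type (WT) B6 Foxp3-RFP mice, in which a red fluorescent protein reports the Treg factor Foxp3, were stimulated with anti-CD3/CD28 microbeads, IL-2 (50 U/ml in the labels) and TGF-β at 2 ng/ml. Live CD4+ Foxp3-RFP+ cells were then sorted by surface neuropilin-1 (Nrp-1) into the subsets compared, so that strain, genotype, reporter, bead stimulation and cytokines were shared by both. The labels give 3 days of culture in one field and day 5 in another, give no age for the mice (the methods give an age range for mice of the study as a whole), and call the libraries of each subset biological replicates 1 to 4 without saying whether a replicate is a mouse or a culture. The p-values therefore measure the spread between these libraries, whatever its source.

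The TCR itself has no enzymatic activity. When it is engaged, the kinase Lck, carried to the receptor by CD4, phosphorylates tyrosines in the tails of the CD3 chains, where Zap70 docks and in turn phosphorylates the adaptors Lat and SLP-76 (Lcp2). These assemble phospholipase Cγ1, Vav1 and other enzymes that open the calcium, Ras, PKCθ and actin branches, while phosphatases, ubiquitin ligases and diacylglycerol kinases damp the signal. In regulatory T cells the strength of this signal is known to affect both the induction of Foxp3 by TGF-β and the later suppressive programme.

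Levels are FPKM, fragments scaled to transcript length and to the mapped total of the library, as the authors deposited them, so they are per length and may be set side by side between genes. Differences were tested with limma on log2(FPKM + 1) and are given as Nrp-1+ iTreg minus Nrp-1- iTreg, with p-values adjusted by the Benjamini-Hochberg method over all 10467 genes, and "passed" means an adjusted p under 0.05. For low genes this scale makes a change look smaller than the ratio of the FPKM values. Read counts were not used here. The steps between low FPKM values put the sequencing depth of the libraries between 0.810 and 1.24 of that of replicate 1 of Nrp-1+ iTreg. Nrp1, the gene behind the sort, was at 21.5 against 4.95 FPKM in the subsets. Of the iTreg markers, Foxp3 (111.5 to 120.5 against 107 to 109.9 FPKM) and Il2ra (259 to 271 against 223 to 231 FPKM) were higher in Nrp-1+ iTreg without overlap, as was Ikzf2 at a low level (2.49 to 2.63 against 1.79 to 1.90 FPKM). Ctla4 was lower (139.8 to 147 against 156 to 162 FPKM), and Cd28 was higher with overlap (101 to 107 against 96.7 to 103 FPKM, adjusted p = 0.0433 by limma). The part of these differences in the results was not tested. Some listed markers of other cell types were each at or below 0.121 FPKM in every library. These included Cd8a (CD8 T cells), Ms4a1 (B cells), Ncr1 (NK cells), Csf1r and Cd14 (monocytes), and Itgax and Flt3 (dendritic cells). The B cell marker Cd79b was higher, between 4.82 and 5.32 FPKM in Nrp-1+ iTreg and between 3.64 and 5.38 FPKM in Nrp-1- iTreg. Of the 21 listed markers of other cell types, 19 had a row. The summed levels were between 5.21 and 5.91 FPKM in Nrp-1+ iTreg and between 4.01 and 5.80 FPKM in Nrp-1- iTreg for B cells, and under 1 FPKM in every library for NK and dendritic cells. Without overlap between the subsets were Zbtb46, a dendritic cell gene (0.144 to 0.252 against 0.0257 to 0.107 FPKM), Cd8b1 (7.07 to 8.77 against 9.28 to 11.3 FPKM), Itgam (6.38 to 7.0 against 5.38 to 5.73 FPKM) and Hba-a1 (5.48 to 7.53 against 2.01 to 3.25 FPKM), whose part in the results was not tested.

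TCR signalling genes were more often lower than higher in Nrp-1+ iTreg. Of the 45 genes, 22 fell and 3 rose, and 20 did not pass. Over all tested genes 20.0% passed as lower and 20.9% as higher, together 40.9%. Among the TCR signalling genes the shares were 48.9% and 6.67%. The differences were small: the log2 fold changes ran from -0.34 (Cblb) to 0.24 (Ubash3b), no gene changed 2-fold, and only 4 genes moved by more than 0.2. The median over the 45 genes was -0.086, beside -0.016 over all tested genes. In 24 of the 45 genes (53.3%) no library of one subset overlapped with the other subset, 21 of them lower and 3 higher in Nrp-1+ iTreg. The background of genes without overlap was 39.5%, with 19.3% lower and 20.2% higher. In bulk libraries fewer cells with a transcript and less RNA per cell cannot be told apart.

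TCR signalling genes were highly expressed. Their median rank by mean FPKM was the 91.9th percentile of the tested genes. Among the 1047 tested genes above the 90th percentile, 32.9% passed as lower in Nrp-1+ iTreg, a comparison chosen after the values were seen. Of the 25 TCR signalling genes above that percentile, 13 did. The replicates lay close together, with a median coefficient of variation of 2.61% within a subset and a maximum of 7.58%. Correcting the libraries for the GC content and length of transcripts lowered the share of higher genes among all those that passed from 51.1% to 40%. The same correction also brought every library to a common mean over all genes, and the part of each step was not tested. With the correction, 27 TCR signalling genes passed as lower and 2 as higher, where 26.4% and 17.6% of all genes in that fit did.

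**Figure D1:**
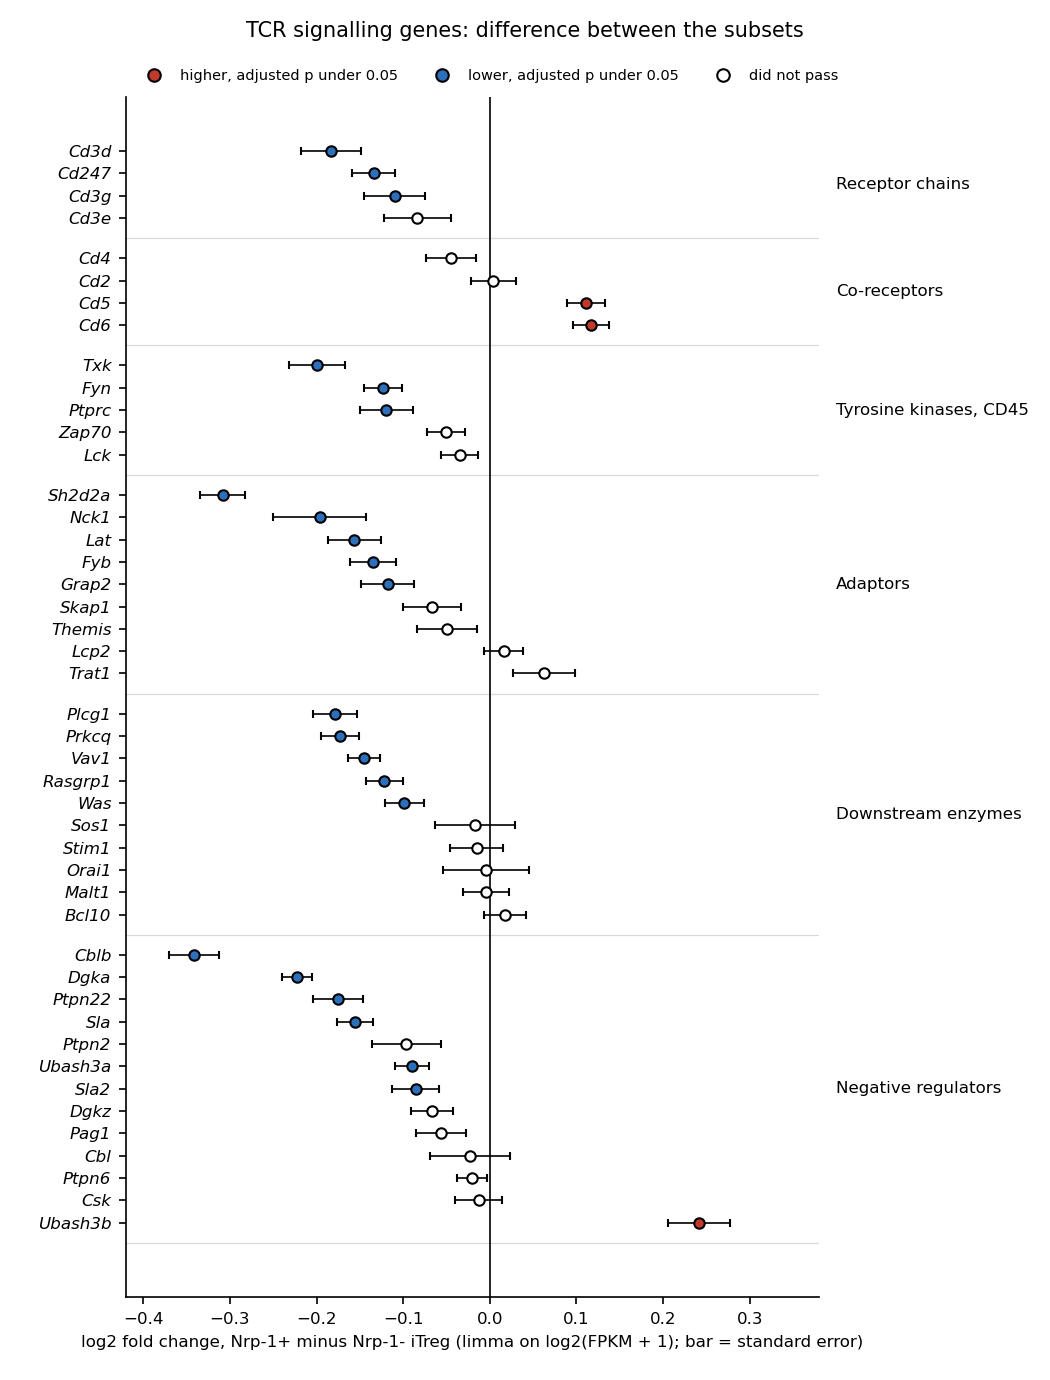
Log2 fold change of the 45 TCR signalling genes between Nrp-1+ and Nrp-1- iTreg (x axis, points with standard errors from limma), grouped by role along the y axis. Blue points passed as lower, red points as higher and white points did not pass. 22 points are blue, and the 3 red points are Cd5, Cd6 and Ubash3b.

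**Figure D2:**
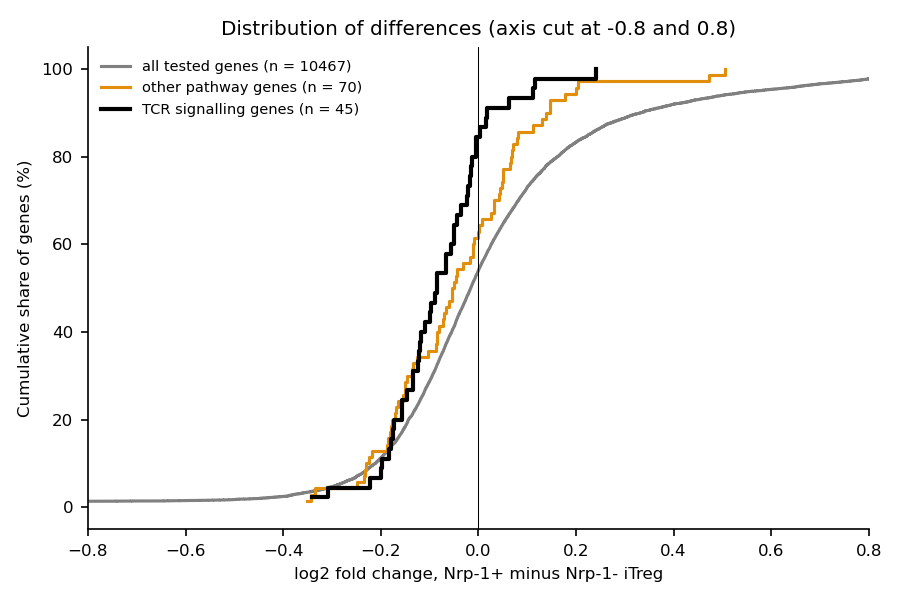
Cumulative share of genes (y axis, %) against the log2 fold change (x axis, Nrp-1+ minus Nrp-1- iTreg) for all 10467 tested genes, 70 other genes of the pathway and the 45 TCR signalling genes. The curve of the TCR signalling genes reaches its midpoint further left, at -0.086 against -0.016, and it runs only from -0.34 to 0.24, whereas that of all tested genes goes beyond both ends of the axis.

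The CD3 chains, the signalling subunits of the receptor, were all lower on average in Nrp-1+ iTreg, and 3 of the 4 passed. Trac, Trbc1 and Trbc2, the constant region genes of the antigen-binding chains, had no row in the expression table. The results on the receptor therefore do not cover those chains. Values are given for replicates 1 to 4 in order. Cd3d, which encodes CD3δ, was at 435, 429, 448 and 436 FPKM in the Nrp-1+ libraries and 465, 495, 515 and 511 FPKM in the Nrp-1- libraries. Every Nrp-1- library was above every Nrp-1+ library, and the level fell by 12% (log2 fold change -0.18, SE 0.035, adjusted p = 0.00370 by limma). Cd247, which encodes the CD3ζ homodimer chain with most of the receptor's phosphorylation motifs, was at 266, 264, 267 and 269 FPKM in the Nrp-1+ libraries and 279, 298, 295 and 299 FPKM in the Nrp-1- libraries. The subsets again did not overlap, and Cd247 fell by 8.94% (log2 fold change -0.13, SE 0.025, adjusted p = 0.00357 by limma). Cd3g, which encodes CD3γ, was at 458, 445, 444 and 428 FPKM in the Nrp-1+ libraries and 453, 479.7, 480.5 and 503 FPKM in the Nrp-1- libraries. Replicate 1 of Nrp-1- iTreg, the lowest of its subset, lay below replicate 1 of Nrp-1+ iTreg, the highest of the other, so the subsets overlapped, and Cd3g fell by 7.36% (log2 fold change -0.11, SE 0.035, adjusted p = 0.0375 by limma). Cd3e, which encodes CD3ε, was at 226, 211, 224 and 226 FPKM in the Nrp-1+ libraries and 224, 251, 235 and 231 FPKM in the Nrp-1- libraries. Its subsets overlapped and the difference did not pass (log2 fold change -0.084, SE 0.039, adjusted p = 0.122 by limma).

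The ratio of Cd3d to Cd3e within a library was 1.92, 2.03, 2.00 and 1.93 in Nrp-1+ iTreg and 2.07, 1.97, 2.19 and 2.21 in Nrp-1- iTreg, and that of Cd3d to Cd247 was 1.63, 1.63, 1.68 and 1.62 in Nrp-1+ iTreg and 1.66, 1.66, 1.75 and 1.71 in Nrp-1- iTreg. Both ratios overlapped between the subsets. Cd3g was close to the threshold. It passed in 2 of the 8 fits that each left out 1 library, those without replicate 1 of either subset, and the adjusted p by limma over the 8 ranged from 0.0109 to 0.0845, while the log2 fold change stayed between -0.136 and -0.0861. With quantile normalization over all genes neither Cd3d (log2 fold change -0.154, adjusted p = 0.304 by limma), Cd3g (-0.0631 and 0.696) nor Cd247 (-0.118 and 0.344) passed, whereas with quantile normalization after short RNA genes had been taken out, a setting added after the data were examined, all 3 did.

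Cd3g and Cd3d lie head to head on chromosome 9 of GRCm38, at 44969572 to 44980431 on the minus strand and 44981769 to 44987052 on the plus strand, with 1337 bases between them, and Cd3e follows 11682 bases beyond Cd3d. The RefSeq promoters of Cd3g and Cd3d, 250 bases before to 50 bases after the start (GRCm38.p6), are shown 5′ to 3′ because these genes share that interval and fell together, and those of Cd5 and Cblb because they stand for the surface receptors that rose and for the gene with the largest decrease. Capitals mark matches on either strand to 4 motifs: TGTGGT (the RUNX core), CCGGAA (an ETS core), CAGCTG (an E-box) and TGTTTA (a forkhead core).
Cd3g, chr9:44980382-44980681, minus strand: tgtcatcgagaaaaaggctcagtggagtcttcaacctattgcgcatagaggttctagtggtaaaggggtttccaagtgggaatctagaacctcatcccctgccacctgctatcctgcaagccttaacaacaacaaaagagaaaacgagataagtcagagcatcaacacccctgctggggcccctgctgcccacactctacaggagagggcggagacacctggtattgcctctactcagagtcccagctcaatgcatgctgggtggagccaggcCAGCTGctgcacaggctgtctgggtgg
Cd3d, chr9:44981536-44981835, plus strand: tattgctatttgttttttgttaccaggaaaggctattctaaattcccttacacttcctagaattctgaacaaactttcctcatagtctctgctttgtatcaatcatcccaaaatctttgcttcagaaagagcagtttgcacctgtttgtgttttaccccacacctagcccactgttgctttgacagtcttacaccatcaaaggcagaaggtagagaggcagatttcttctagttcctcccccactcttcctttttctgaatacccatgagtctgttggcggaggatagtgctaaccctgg
Cd5, chr19:10738925-10739224, minus strand: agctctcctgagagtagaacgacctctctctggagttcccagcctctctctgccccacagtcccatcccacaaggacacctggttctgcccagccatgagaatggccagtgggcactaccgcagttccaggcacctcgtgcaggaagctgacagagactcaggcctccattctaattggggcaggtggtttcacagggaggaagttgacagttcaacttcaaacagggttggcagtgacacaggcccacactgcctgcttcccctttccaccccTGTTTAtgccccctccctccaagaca
Cblb, chr16:52031299-52031598, plus strand: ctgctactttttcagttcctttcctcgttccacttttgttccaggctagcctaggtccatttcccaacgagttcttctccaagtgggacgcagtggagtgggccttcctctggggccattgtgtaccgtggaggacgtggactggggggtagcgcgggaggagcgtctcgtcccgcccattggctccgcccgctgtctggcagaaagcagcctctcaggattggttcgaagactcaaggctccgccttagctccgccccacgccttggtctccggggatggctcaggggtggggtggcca
The Cd3g window held 1 E-box, the Cd5 window 1 forkhead core, and those of Cd3d and Cblb none of the 4 motifs. RefSeq promoters were found for 36 of the 45 genes (50 windows). RUNX cores were in 18% of these windows and in 16.8% of all 32851, ETS cores in 10.0% and 14.9%, the E-box in 12% and 16.3%, and forkhead cores in 12% and 13.4%.

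Of the 4 surface co-receptors, Cd5 and Cd6 rose, and Cd4 and Cd2 did not pass. Cd5, a scavenger receptor family protein that restrains TCR signals and whose surface level is known to follow their strength, was at 242, 239, 241 and 248 FPKM in the Nrp-1+ libraries and 220.3, 229, 227 and 221 FPKM in the Nrp-1- libraries. Every Nrp-1+ library was above every Nrp-1- library, and Cd5 rose by 8.06% (log2 fold change 0.11, SE 0.022, adjusted p = 0.00437 by limma). Cd6, a related receptor that binds the adhesion molecule ALCAM, was at 154, 154, 154 and 159.6 FPKM in the Nrp-1+ libraries and 145, 141, 146 and 141 FPKM in the Nrp-1- libraries. Its subsets did not overlap either, and Cd6 rose by 8.48% (log2 fold change 0.12, SE 0.021, adjusted p = 0.00294 by limma). These 2 genes are neighbours on chromosome 19 of GRCm38 (10718107 to 10739026 and 10789339 to 10830062), 50312 bases apart with 1 annotated gene between them. The ratio of Cd5 to Cd6 was 1.57, 1.56, 1.57 and 1.56 in Nrp-1+ iTreg and 1.52, 1.62, 1.56 and 1.57 in Nrp-1- iTreg, with overlap. The ratio of Cd5 to Cd3e, a receptor chain that did not pass, was 1.07, 1.13, 1.07 and 1.10 in Nrp-1+ iTreg and 0.982, 0.911, 0.967 and 0.958 in Nrp-1- iTreg, without overlap.

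Cd4, the co-receptor that delivers Lck and on which the cells had been sorted, was at 319, 314, 309 and 319 FPKM in the Nrp-1+ libraries and 323, 309, 335 and 333 FPKM in the Nrp-1- libraries. The subsets overlapped (log2 fold change -0.044, SE 0.029, adjusted p = 0.255 by limma). Cd2, an adhesion receptor with the highest level of the 45 genes, was at 669, 662, 667 and 648 FPKM in the Nrp-1+ libraries and 636, 657, 679 and 668 FPKM in the Nrp-1- libraries. Its means lay 0.254% apart and its libraries were fully interleaved (log2 fold change 0.004, SE 0.026, adjusted p = 0.920 by limma). Neither Cd5 (log2 fold change 0.138, adjusted p = 0.128 by limma) nor Cd6 (0.103 and 0.0860) passed with quantile normalization over all genes, both of them passed when short RNA genes had been taken out first, and Cd5 did not pass after the GC and length correction (adjusted p = 0.0707 by limma).

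**Figure D3:**
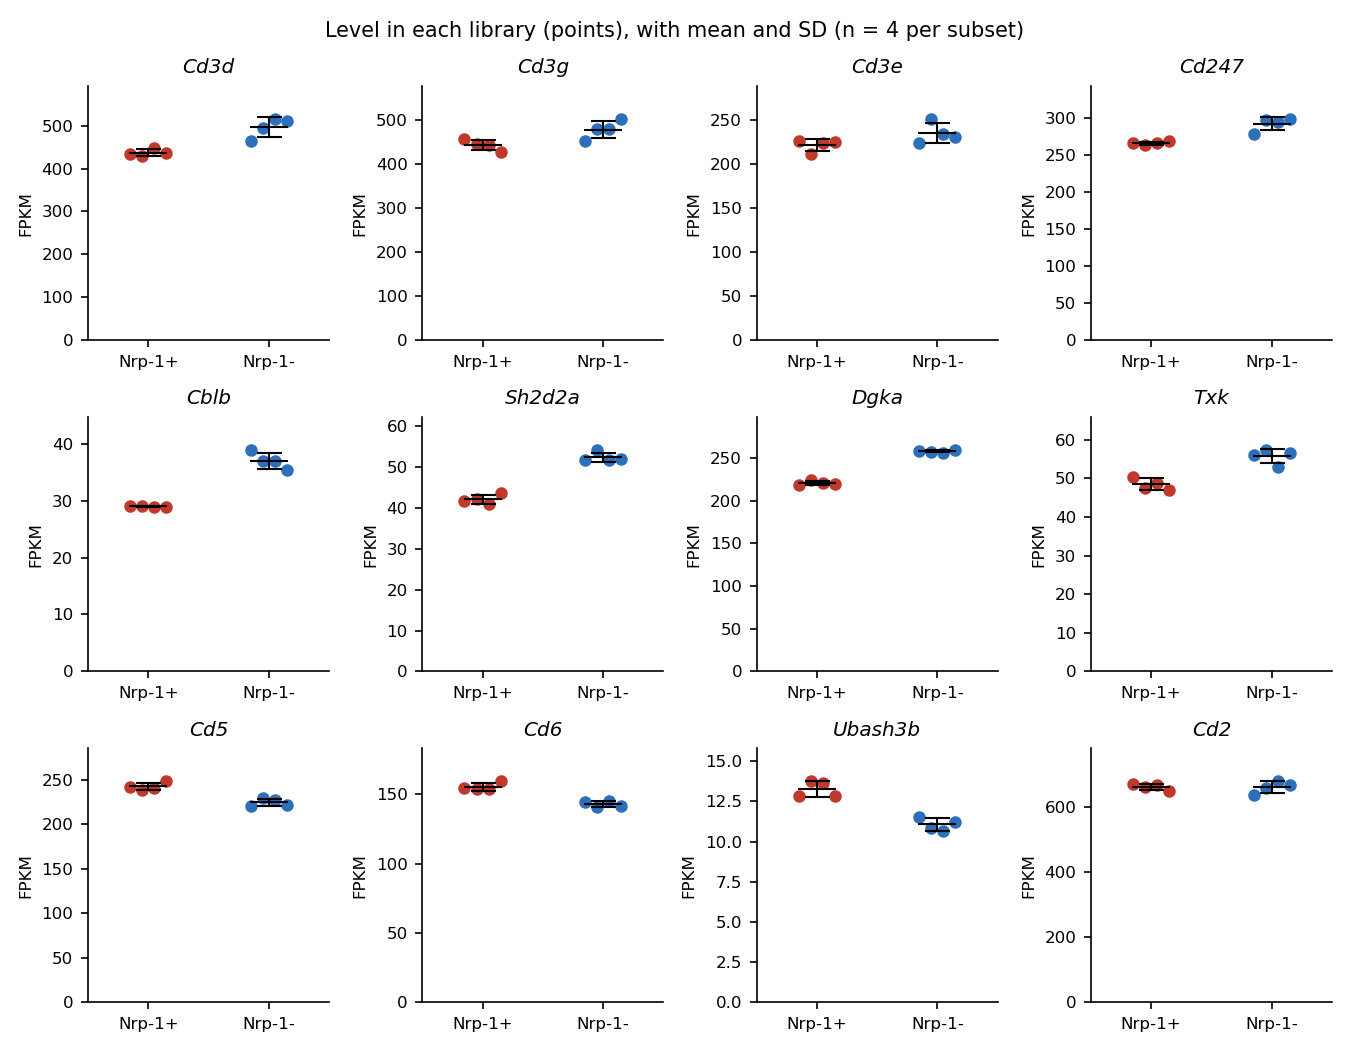
FPKM (y axis, from 0) of 12 TCR signalling genes in each Nrp-1+ iTreg library (red) and Nrp-1- iTreg library (blue), with the mean and SD of the 4 libraries of a subset in black. The points of Cblb, Sh2d2a, Dgka, Txk, Cd3d and Cd247 are lower in Nrp-1+ iTreg and those of Cd5, Cd6 and Ubash3b higher, each without overlap. The points of Cd3g, Cd3e and Cd2 overlap.

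Among the tyrosine kinases closest to the receptor, Fyn and Txk fell, and Lck and Zap70 did not pass. Txk, a Tec family kinase of resting T cells, was at 50.5, 47.5, 48.9 and 46.9 FPKM in the Nrp-1+ libraries and 56.2, 57.3, 53.1 and 56.6 FPKM in the Nrp-1- libraries. All Nrp-1+ libraries were below all Nrp-1- libraries, and Txk fell by 13.2% (log2 fold change -0.20, SE 0.032, adjusted p = 0.00168 by limma). Fyn, the Src family kinase that acts beside Lck, ranged between 114 and 121 FPKM in the Nrp-1+ libraries and between 128 and 129 FPKM in the Nrp-1- libraries and fell by 8.24% (log2 fold change -0.12, SE 0.022, adjusted p = 0.00245 by limma). Lck ranged between 371 and 385 FPKM in the Nrp-1+ libraries and between 378 and 393 FPKM in the Nrp-1- libraries, with overlap (log2 fold change -0.035, SE 0.022, adjusted p = 0.234 by limma). Zap70, which docks on the phosphorylated CD3 chains, ranged between 125 and 131 FPKM in the Nrp-1+ libraries and between 131 and 135 FPKM in the Nrp-1- libraries (log2 fold change -0.051, SE 0.022, adjusted p = 0.10 by limma). The ratio of Fyn to Lck was 0.305, 0.323, 0.322 and 0.306 in Nrp-1+ iTreg and 0.341, 0.328, 0.331 and 0.336 in Nrp-1- iTreg, lower in every Nrp-1+ library than in any Nrp-1- library.

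Ptprc, which encodes CD45, the phosphatase that keeps Lck ready to act, was at 353, 358, 342 and 328 FPKM in the Nrp-1+ libraries and 383, 369, 373 and 373 FPKM in the Nrp-1- libraries. Its subsets did not overlap, and Ptprc fell by 7.93% (log2 fold change -0.12, SE 0.03, adjusted p = 0.0142 by limma). With quantile normalization over all genes Ptprc did not pass (log2 fold change -0.105, adjusted p = 0.377 by limma).

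Adaptors, which have no enzymatic activity and hold the signalling complexes together, fell in 5 of 9 cases and rose in none. Sh2d2a, which encodes the T cell specific adaptor TSAd, a binding partner of Lck, had the largest decrease among them, at 41.6, 42.2, 41.1 and 43.7 FPKM in the Nrp-1+ libraries and 51.8, 54.1, 51.7 and 51.9 FPKM in the Nrp-1- libraries. The subsets were far apart relative to their spread, and Sh2d2a fell by 19.6% (log2 fold change -0.31, SE 0.026, adjusted p = 4.33e-05 by limma). Nck1, which couples the receptor to actin, was at 26.4, 27.6, 26.2 and 24.9 FPKM in the Nrp-1+ libraries and 28.6, 29.4, 29.6 and 33.7 FPKM in the Nrp-1- libraries. Replicate 4 of Nrp-1- iTreg stood highest and replicate 4 of Nrp-1+ iTreg lowest, and there was no overlap (log2 fold change -0.20, SE 0.054, adjusted p = 0.0196 by limma). Without that replicate of Nrp-1+ iTreg the adjusted p by limma was 0.0517.

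Lat, the membrane scaffold phosphorylated by Zap70, was at 536, 519, 546 and 560.1 FPKM in the Nrp-1+ libraries and 579, 605, 613 and 611 FPKM in the Nrp-1- libraries. Its subsets did not overlap, and Lat fell by 10.3% (log2 fold change -0.16, SE 0.031, adjusted p = 0.00466 by limma). Grap2, which encodes Gads, the bridge between Lat and SLP-76, was at 103, 106, 106 and 110.5 FPKM in the Nrp-1+ libraries and 115, 111, 116 and 121 FPKM in the Nrp-1- libraries. No library overlapped with the other subset, and Grap2 fell by 7.94% (log2 fold change -0.12, SE 0.03, adjusted p = 0.0150 by limma). Lcp2, which encodes SLP-76 itself, was at 85.4, 84.1, 80.3 and 83.2 FPKM in the Nrp-1+ libraries and 81.7, 83.0, 82.1 and 82.3 FPKM in the Nrp-1- libraries. The Nrp-1+ libraries spread on both sides of the Nrp-1- libraries (log2 fold change 0.016, SE 0.023, adjusted p = 0.606 by limma). Fyb, which encodes ADAP, an adaptor that links the receptor to integrins, was at 179.6, 184, 172 and 174 FPKM in the Nrp-1+ libraries and 195, 191, 195 and 199 FPKM in the Nrp-1- libraries. Every Nrp-1+ value was below every Nrp-1- value, and Fyb fell by 8.94% (log2 fold change -0.13, SE 0.027, adjusted p = 0.00459 by limma). Skap1, the partner of ADAP, ranged between 154 and 165 FPKM in the Nrp-1+ libraries and between 160.3 and 175 FPKM in the Nrp-1- libraries and did not pass (log2 fold change -0.067, adjusted p = 0.146 by limma), although its adjusted p by limma was 0.0421 without replicate 1 of Nrp-1- iTreg. The ratio of Fyb to Skap1 was 1.12, 1.12, 1.04 and 1.13 in Nrp-1+ iTreg and 1.21, 1.13, 1.12 and 1.16 in Nrp-1- iTreg, with overlap.

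Themis, an adaptor best known for its role in thymocyte selection, ranged between 32.8 and 35.2 FPKM in the Nrp-1+ libraries and between 34.2 and 37.4 FPKM in the Nrp-1- libraries (log2 fold change -0.049, adjusted p = 0.291 by limma). Trat1, a transmembrane adaptor that associates with the receptor, ranged between 109 and 113 FPKM in the Nrp-1+ libraries and between 101 and 113 FPKM in the Nrp-1- libraries (log2 fold change 0.062, adjusted p = 0.202 by limma). Neither passed. Trat1 was above every other Nrp-1- value in replicate 2 of that subset, and without this library its adjusted p by limma was 0.0204. With quantile normalization over all genes Lat (log2 fold change -0.115, adjusted p = 0.523 by limma), Grap2 (-0.132 and 0.0556) and Fyb (-0.107 and 0.196) did not pass.

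**Figure D4:**
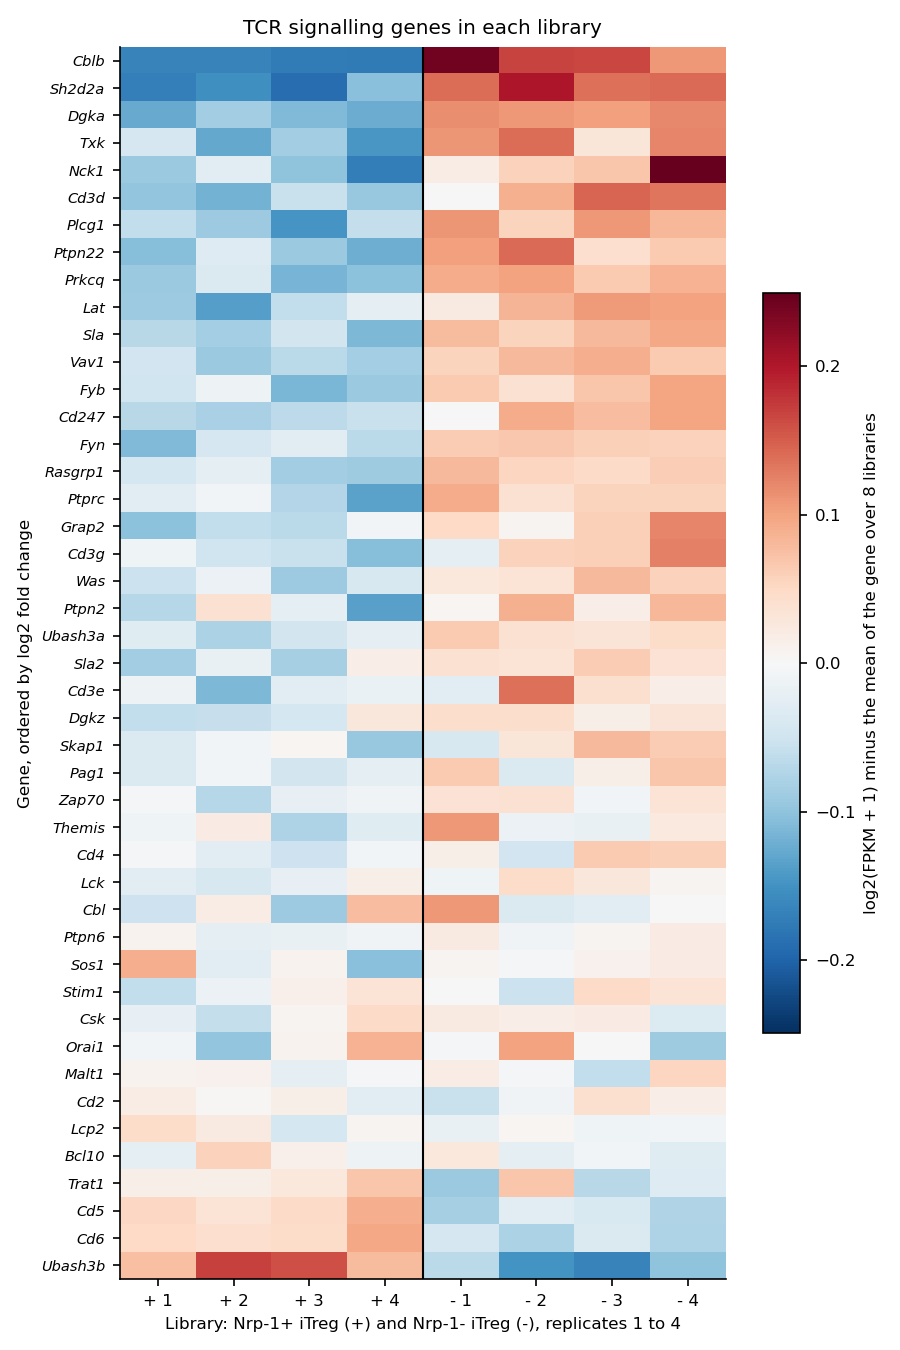
Level of the 45 TCR signalling genes (rows, ordered by log2 fold change) in each library (columns), as log2(FPKM + 1) minus the mean of the gene over the 8 libraries (colour, red above and blue below the mean). The upper rows, led by Cblb, Sh2d2a and Dgka, are blue in all 4 Nrp-1+ libraries and red in the Nrp-1- libraries, and the lowest 3 rows, Cd5, Cd6 and Ubash3b, show the reverse.

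Downstream of the adaptors the genes split evenly: 5 of 10 enzymes and effectors fell and 5 did not pass. Prkcq, which encodes PKCθ, the kinase that starts the NF-κB branch, was at 150.3, 156, 148 and 149 FPKM in the Nrp-1+ libraries and 171, 172, 168 and 170.4 FPKM in the Nrp-1- libraries. There was a clear gap between the subsets, and Prkcq fell by 11.3% (log2 fold change -0.17, SE 0.022, adjusted p = 0.000498 by limma). Plcg1, the phospholipase that makes diacylglycerol and the calcium-releasing inositol phosphate, was at 61.3, 60.0, 57.7 and 61.3 FPKM in the Nrp-1+ libraries and 69.1, 66.5, 69.0 and 67.8 FPKM in the Nrp-1- libraries. It was lower in all Nrp-1+ libraries and fell by 11.8% (log2 fold change -0.18, SE 0.026, adjusted p = 0.000912 by limma). Vav1, an exchange factor for Rac, ranged between 74.3 and 76.6 FPKM in the Nrp-1+ libraries and between 82.3 and 84.4 FPKM in the Nrp-1- libraries and fell by 9.71% (log2 fold change -0.15, adjusted p = 0.000471 by limma). Rasgrp1, which activates Ras when diacylglycerol appears, ranged between 122 and 127 FPKM in the Nrp-1+ libraries and between 134 and 137 FPKM in the Nrp-1- libraries and fell by 8.13% (log2 fold change -0.12, adjusted p = 0.00250 by limma). Was, the Wiskott-Aldrich syndrome protein that starts actin branching, ranged between 82.6 and 87.2 FPKM in the Nrp-1+ libraries and between 89.7 and 93.2 FPKM in the Nrp-1- libraries and fell by 6.67% (log2 fold change -0.10, adjusted p = 0.00965 by limma). All 5 were without overlap and passed in every alternative run, each library left out in turn included.

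Bcl10, which PKCθ signals through, was at 48.4, 51.3, 49.6 and 48.8 FPKM in the Nrp-1+ libraries and 50.1, 48.4, 48.9 and 48.2 FPKM in the Nrp-1- libraries. The libraries were interleaved (log2 fold change 0.018, SE 0.025, adjusted p = 0.598 by limma). Malt1, its partner and a protease, was at 35.7, 35.7, 34.8 and 35.4 FPKM in the Nrp-1+ libraries and 35.9, 35.4, 33.9 and 36.8 FPKM in the Nrp-1- libraries. Again there was no separation (log2 fold change -0.0043, SE 0.027, adjusted p = 0.915 by limma). Of the calcium entry genes, Stim1, the sensor of the endoplasmic reticulum, was at 45.8, 47.3, 48.2 and 49.0 FPKM in the Nrp-1+ libraries and 47.9, 46.0, 49.5 and 49.0 FPKM in the Nrp-1- libraries. The libraries of both subsets covered nearly the same range (log2 fold change -0.015, SE 0.031, adjusted p = 0.725 by limma). Orai1, the pore of the channel, was at 24.1, 22.5, 24.4 and 25.8 FPKM in the Nrp-1+ libraries and 24.2, 26.0, 24.2 and 22.7 FPKM in the Nrp-1- libraries. Its libraries covered nearly the same range in both subsets (log2 fold change -0.0046, SE 0.05, adjusted p = 0.952 by limma). Sos1, the Ras exchange factor recruited by Grb2, had the lowest level of the 45 genes and ranged between 3.94 and 4.65 FPKM in the Nrp-1+ libraries and between 4.29 and 4.38 FPKM in the Nrp-1- libraries (log2 fold change -0.017, adjusted p = 0.796 by limma).

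Of the 13 negative regulators, 6 fell, 1 rose and 6 did not pass. Cblb, a ubiquitin ligase that sets the need for CD28 co-stimulation, had the largest change of all 45 genes, at 29.1, 29.1, 28.9 and 28.9 FPKM in the Nrp-1+ libraries and 38.9, 36.9, 36.9 and 35.4 FPKM in the Nrp-1- libraries. The 4 Nrp-1+ libraries lay within 1 FPKM of each other and well below the Nrp-1- libraries, and Cblb fell by 21.7% (log2 fold change -0.34, SE 0.029, adjusted p = 4.12e-05 by limma). Its relative Cbl ranged between 22.0 and 24.8 FPKM in the Nrp-1+ libraries and between 22.9 and 25.4 FPKM in the Nrp-1- libraries, with overlap (log2 fold change -0.023, adjusted p = 0.724 by limma). The ratio of Cblb to Cbl was 1.28, 1.22, 1.31 and 1.16 in Nrp-1+ iTreg and 1.53, 1.61, 1.60 and 1.5 in Nrp-1- iTreg, so every Nrp-1+ library was lower. Cblb lies at 52031230 to 52208047 on chromosome 16 of GRCm38 and ranked 1386 of the 10467 tested genes by size of change.

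Dgka, which encodes the diacylglycerol kinase DGKα that removes the activator of Rasgrp1 and PKCθ, was at 218, 225, 221 and 219 FPKM in the Nrp-1+ libraries and 259, 257, 256 and 259 FPKM in the Nrp-1- libraries. The gap between the subsets was several times the range within either, and Dgka fell by 14.3% (log2 fold change -0.22, SE 0.018, adjusted p = 2.85e-05 by limma). Dgkz, which encodes DGKζ, ranged between 136 and 145 FPKM in the Nrp-1+ libraries and between 143 and 146 FPKM in the Nrp-1- libraries (log2 fold change -0.067, SE 0.024, adjusted p = 0.0563 by limma). Its highest Nrp-1+ library, replicate 4, reached into the Nrp-1- range, and without it the adjusted p by limma was 0.00573. The ratio of Dgka to Dgkz was 1.61, 1.65, 1.61 and 1.51 in Nrp-1+ iTreg and 1.77, 1.76, 1.79 and 1.79 in Nrp-1- iTreg, without overlap.

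Ubash3b was the only one of these 13 genes that rose. It encodes STS-1, a phosphatase that acts on Zap70, and was at 12.8, 13.8, 13.7 and 12.9 FPKM in the Nrp-1+ libraries and 11.5, 10.8, 10.7 and 11.2 FPKM in the Nrp-1- libraries. Every Nrp-1+ library was above every Nrp-1- library, and Ubash3b rose by 19.8% (log2 fold change 0.24, SE 0.036, adjusted p = 0.00103 by limma). Ubash3a, which encodes its relative STS-2, ranged between 48.7 and 50.6 FPKM in the Nrp-1+ libraries and between 52.6 and 53.9 FPKM in the Nrp-1- libraries and fell by 6.14% (log2 fold change -0.09, SE 0.02, adjusted p = 0.00767 by limma). The ratio of Ubash3b to Ubash3a was 0.254, 0.283, 0.274 and 0.254 in Nrp-1+ iTreg and 0.214, 0.205, 0.203 and 0.212 in Nrp-1- iTreg, so the relatives moved in opposite directions, although Ubash3a remained the more abundant transcript in every library.

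**Figure D5:**
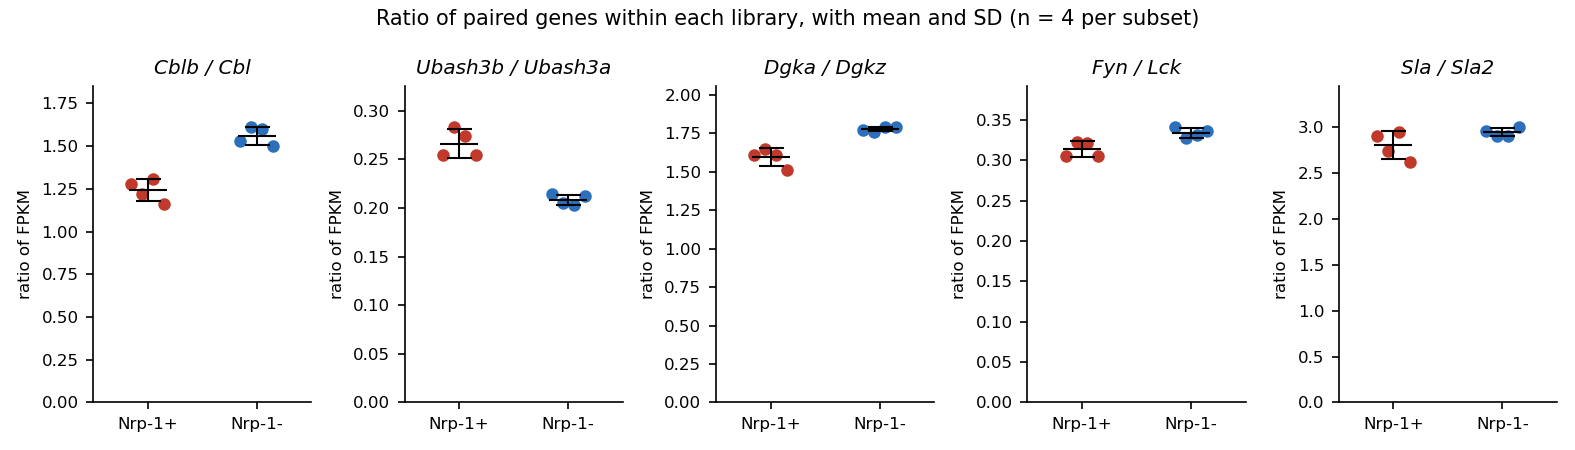
Ratio of FPKM between related genes within each library (y axis, from 0) in Nrp-1+ iTreg (red) and Nrp-1- iTreg (blue), with the mean and SD of 4 libraries in black. The ratios of Cblb to Cbl, Dgka to Dgkz and Fyn to Lck are lower and that of Ubash3b to Ubash3a is higher in every Nrp-1+ library, and the ratio of Sla to Sla2 overlaps.

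Ptpn22, which encodes a phosphatase that works with Csk on Lck and Zap70, was at 85, 89.5, 85.8 and 84.0 FPKM in the Nrp-1+ libraries and 98.3, 101, 94.2 and 95.8 FPKM in the Nrp-1- libraries. The subsets did not overlap, and Ptpn22 fell by 11.6% (log2 fold change -0.18, SE 0.029, adjusted p = 0.00200 by limma). Csk, the kinase that places the inhibitory phosphate on Lck, was at 201, 196, 205 and 211 FPKM in the Nrp-1+ libraries and 208, 206, 207 and 199 FPKM in the Nrp-1- libraries. Its libraries were interleaved (log2 fold change -0.013, SE 0.027, adjusted p = 0.739 by limma). Pag1, the membrane adaptor that docks Csk, ranged between 15.4 and 15.9 FPKM in the Nrp-1+ libraries and between 15.6 and 16.8 FPKM in the Nrp-1- libraries (log2 fold change -0.057, adjusted p = 0.155 by limma). The phosphatase genes Ptpn6, which encodes SHP-1, and Ptpn2 did not pass. Ptpn6 ranged between 139 and 142 FPKM in the Nrp-1+ libraries and between 140.3 and 143 FPKM in the Nrp-1- libraries (log2 fold change -0.02, adjusted p = 0.382 by limma). Ptpn2 ranged between 59.4 and 67.1 FPKM in the Nrp-1+ libraries and between 65.6 and 69.6 FPKM in the Nrp-1- libraries (log2 fold change -0.10, adjusted p = 0.0846 by limma), and without replicate 2 of Nrp-1+ iTreg its adjusted p by limma was 0.0318.

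Sla and Sla2 encode adaptors that lead the receptor to Cbl proteins. Sla ranged between 139 and 146 FPKM in the Nrp-1+ libraries and between 157 and 161 FPKM in the Nrp-1- libraries and fell by 10.3% (log2 fold change -0.16, SE 0.021, adjusted p = 0.000591 by limma). Sla2 was at 49.4, 51.8, 49.5 and 53.1 FPKM in the Nrp-1+ libraries and 53.9, 53.8, 54.9 and 53.9 FPKM in the Nrp-1- libraries. The subsets were separated by a narrow gap, and Sla2 fell by 5.82% (log2 fold change -0.086, SE 0.027, adjusted p = 0.0364 by limma). The ratio of Sla to Sla2 was 2.91, 2.74, 2.95 and 2.62 in Nrp-1+ iTreg and 2.96, 2.91, 2.91 and 3.00 in Nrp-1- iTreg, with overlap. Sla2 passed in only 2 of the 8 fits that left out a library, those without replicate 2 or 4 of Nrp-1+ iTreg, with adjusted p values by limma from 0.0110 to 0.0900 and log2 fold changes from -0.106 to -0.0711. Sla2 shares 731 exonic bases with a gene on the opposite strand, Rab5if, listed as 1110008F13Rik at a mean of 53.7 FPKM, and Cd247 shares 3007 with Pou2f1 (3.79 FPKM), Plcg1 379 with Zhx3 (2.56 FPKM) and Dgka 105 with Pmel (1.35 FPKM). Whether the authors' counting used the strand is not given in the sources used here, so the values of these genes are uncertain. This holds most for Sla2, whose mean of 52.5 FPKM was near that of its partner. The means of Cd247, Plcg1 and Dgka, at 280, 64.1 and 239 FPKM, were well above those of their partners. Same-strand overlaps include 231 bases of Fyb with Gm7666 and 206 of Cd247 with Gm16565, for which no row was found.

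The other genes of the pathway were taken from a second list of 73 names, 70 of which had a mean FPKM of at least 1. Of these, 24 fell (34.3%), 9 rose (12.9%) and 37 did not pass, with a median log2 fold change of -0.052, beside 20.0% lower and 20.9% higher over all tested genes. The largest share of lower genes, 11 of 23, was among kinases, phosphatases and adaptors near the receptor. It was 4 of 14 among calcium and calcineurin genes, 4 of 12 among actin genes, 3 of 13 in the Ras and MAPK branch and 2 of 8 in the PI3K branch. Higher genes numbered 3 near the receptor, 2 among calcium and calcineurin genes and 0 among actin genes. The Ras and MAPK branch and the PI3K branch each held 2 higher genes. The 5 largest decreases were those of Evl, Grap, Tec, Pstpip1 and Rasal3. Evl, an actin regulator of the Ena/VASP family, was at 93.3 against 119 FPKM (log2 fold change -0.35, adjusted p = 5.75e-05 by limma). Grap, an adaptor related to Grb2 and Grap2, was at 135 against 172 FPKM (log2 fold change -0.34, adjusted p = 9.54e-06 by limma). Tec, a kinase of the family of Txk, was at 6.85 against 8.91 FPKM (log2 fold change -0.33, adjusted p = 0.00155 by limma). Pstpip1, which binds CD2 and the Wiskott-Aldrich protein, was at 87.2 against 104 FPKM (log2 fold change -0.25, adjusted p = 0.000179 by limma), and Rasal3, a Ras GTPase activating protein, at 88.7 against 104 FPKM (log2 fold change -0.23, adjusted p = 4.02e-05 by limma).

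Among the largest increases were those of Ptprj, Gab2, Ptpn7 and Akt1. Ptprj, which encodes the receptor phosphatase CD148, was at 4.62 against 2.96 FPKM (log2 fold change 0.50, adjusted p = 0.00142 by limma). Gab2, a docking adaptor that recruits the phosphatase SHP-2, was at 1.48 against 0.788 FPKM (log2 fold change 0.47, adjusted p = 0.00267 by limma). Ptpn7, a phosphatase of MAP kinases, was at 84.2 against 73.1 FPKM (log2 fold change 0.20, adjusted p = 0.000163 by limma), and the kinase gene Akt1 at 72.6 against 64.1 FPKM (log2 fold change 0.18, adjusted p = 0.000561 by limma). Gab2 passed the filter on low values only through the Nrp-1+ libraries, since its mean in Nrp-1- iTreg was under 1 FPKM, so that its place among the genes that rose follows in part from the filter. Gab2 and Ptprj were low genes, for which the scale understates the ratio.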

How the data were processed

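RNA sequencing of 8 libraries, 4 of Nrp-1+ iTreg and 4 of Nrp-1- iTreg, was analysed, with groups and replicate numbers from the sample labels. Reads were handled by the authors in CLC Genomics Workbench, and Cufflinks gave the deposited FPKM values, 1 for each symbol in each library, which are scaled to transcript length and mapped fragments and are not counts. The submitters' processing notes name the builds GRCm38 and mm10. The annotation and the strand setting are not given in the sources used here, and the labels and the paper name different library kits.

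The deposited values were not rescaled. Genes averaging 1 FPKM or more entered the fit of log2(FPKM + 1) by limma 3.58.1 in R 4.3.3 (eBayes with an intensity trend, Benjamini-Hochberg adjustment over 10467 genes), after a test on simulated data. Every TCR signalling gene is reported. Values in all libraries are printed for the CD3 chains, Cd4, the 10 largest and 5 smallest changes and genes whose call was lost or whose direction reversed under an alternative other than leaving out a library, and ranges for the rest. Other pathway genes are named by the 5 largest changes in each direction, of which 1 is not reported here. The members and lists were chosen with earlier results of these data known. Python 3.11.15 with pandas 2.3.3 and matplotlib 3.10.9 served for ratios, relative depth (from values under 0.3 FPKM) and plots. Depth is known only as these ratios, so no counting intervals are given. Coordinates and promoters are from RefSeq on GRCm38.p6, and exon overlaps, lengths and GC content from GENCODE on the same build. Alternatives tried were other pseudocounts (0.1 and 0.5), no filter, a filter at 5 FPKM, size factors, quantile normalization with and without 267 tested short RNA genes, those genes left out, the replicate number as a block, no trend, array weights, a correction for GC content and length without and with the block, and each library left out.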

Additional observations from a re-analysis of the deposited data

Results flagged for a closer look

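With 90 groups of 4 libraries examined for a library far from the other 3 by the 95% critical value of the Dixon test, 6 values were found, where chance gives about 4.5. In Nrp-1+ iTreg these were Cd3e in replicate 2, at 211 FPKM against 224 to 226 FPKM in the others, and Cd6 in replicate 4, at 159.6 FPKM against 153.6 to 154.4 FPKM. In Nrp-1- iTreg they were Zap70 in replicate 3, at 131 FPKM against 134.6 to 134.8 FPKM, Sh2d2a in replicate 2, at 54.1 FPKM against 51.7 to 51.9 FPKM, Csk in replicate 4, at 199 FPKM against 206 to 208 FPKM, and Sla2 in replicate 3, at 54.9 FPKM against 53.8 to 53.9 FPKM. Replicate 3 of Nrp-1- iTreg held 2 of the 6.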

How the results depend on the processing

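Of the 25 TCR signalling genes that passed, 14 passed under all 13 alternatives and with each library left out, and none reversed direction. The number of lower genes, 22, ranged from 15 (quantile normalization, 19.3% of all genes lower) to 27 (GC and length correction, 26.4%), and from 20 to 22 with each library left out (17.0% to 18.3%). The number of higher genes, 3, was 1 with quantile normalization (16.9% of all genes higher) and 1 with the GC and length correction and replicate block (15.3%). Their median log2 fold change of -0.086 was -0.118 with the GC and length correction, without and with the replicate block. The number of higher genes in the rest of the pathway fell from 9 to 5 with that correction and the block. With the correction alone, Lck, Zap70, Skap1, Ptpn2 and Dgkz passed as lower too and Cd5 did not pass, and with the block Cd6 did not either. The correction also brought every library to a common mean, and the cause of these shifts was not tested. Libraries with the same replicate number did not deviate together (correlations of -0.036, -0.0645, -0.080 and -0.107 over 10200 genes, 0 of 4 libraries closest to their own number). Whether same-numbered libraries came from a common mouse or culture cannot be told from these correlations. With the replicate block alone 19 genes were lower and 3 higher (16.0% and 18.4% of all genes), Cd3g, Nck1 and Sla2 not passing. Cd3g also did not pass without the filter on low values (adjusted p = 0.056 by limma). Sla2 did not pass without the intensity trend (adjusted p = 0.0526 by limma). Genes that had not passed changed sign in some settings without passing. With the GC and length correction, log2 fold changes were -0.030 for Cd2, -0.024 for Lcp2 and -0.012 for Bcl10, the same with the block, and Bcl10 was at -0.00566 with quantile normalization without short RNA genes, an alternative added after the data were examined. With each library left out, values ran from -0.0138 to 0.0177 for Cd2, -0.0356 to 0.00305 for Stim1, -0.0349 to 0.0277 for Orai1, -0.0308 to 0.00497 for Csk, -0.0252 to 0.0126 for Malt1, -0.0523 to 0.00939 for Cbl and -0.0495 to 0.015 for Sos1. Only relative depth is known, so counting error in single genes was not separated from other spread.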
